A study of Gallus gallus with 2 samples.

Results

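The genes described here, measured in 6C2 cells, belong to the MYB and MYC proto-oncogene families or compete with MYC proteins for their partner MAX. They were taken by symbol from the deposited gene table: 9 symbols were sought, 8 of them (MYB, MYBL1, MYBL2, MYC, MYCN, MXD1, MXI1 and MGA) had 1 row each, and MAX, which had no row under that symbol, was not analysed here. These are 8 of 17934 genes in the table and of 16464 genes analysed, and the rule names them by symbol and uses no measured value, although earlier results of these data were known when it was written. The series holds 1 group of 2 total RNA samples, with no treatment given and no second group to compare them with. The labels call them cell sample s1 and cell sample s2, and they are named replicate 1 and replicate 2 here. 6C2 is a transformed chicken erythroleukemia line whose cells cycle but are held at the erythroid colony-forming unit stage, before they become red cells. Both samples come from this 1 line, no untransformed red cell precursor stands beside it, and nothing in the labels says that the samples were grown apart, so what separates them may be technical.

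MYB and MYC were both first known as oncogenes carried by chicken retroviruses. The MYB protein is a DNA-binding regulator that keeps blood progenitors, including those of red cells, immature and dividing, and its level is known to fall as these cells mature. MYBL1 and MYBL2 encode relatives with the same kind of DNA-binding domain; MYBL2 works with the MuvB complex on genes of late cell cycle phases, and MYBL1 is best known in mouse from male germ cells. MYC proteins bind E-box DNA only as pairs with MAX and promote growth and ribosome production, while MXD1, MXI1, MNT and MGA compete for MAX and repress.

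Read counts in the table summed to 40064443 in replicate 1 and 30668939 in replicate 2, and the 8 genes took 0.0282% and 0.0343% of these sums. Values are RPKM, read counts divided by the listed gene length and by the size of the library, as deposited, so levels of different genes are set side by side per length. Detected means that neither sample was under an RPKM of 1. With 1 group there is no test between conditions, and none is given. Over all genes with a name 60.4% were detected, and over all genes analysed 52.6%. Of 9 measured erythroid markers, all were detected (summed RPKM 1979 and 2198). Of the markers of other cells, 1 of 6 was detected for T cells (sum 3.54 and 4.37), 0 of 4 for B cells (0.38 and 0.26), 1 of 5 for macrophages (1.29 and 1.44), 0 of 3 for granulocytes (0.23 and 0.25) and 0 of 4 for fibroblasts (1.85 and 2.41). Thrombocyte markers were detected for 3 of 4, with sums of 22.02 and 24.76. No measured marker had 0 reads in both samples, the B cell marker CD79B being at 0.03 and 0.04. In bulk RNA, fewer cells that express a gene and less of its RNA per cell cannot be told apart.

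MYB had the highest level of the 8 genes, followed by MYC, and every member but MYCN was detected. This is 7 of 8, against 60.4% of the 13086 genes with a name and 52.6% of all genes analysed, or 61.2% of named nuclear genes of at least 200 bp that are no small RNA. The median of the 8 means was 10.8 RPKM, against 4.34 over named genes. MYB exceeded MYC 2.15-fold in replicate 1 and 1.73-fold in replicate 2, and MYC exceeded MYBL2 1.96-fold and 2.83-fold. Below these, the order was MYBL2, MXI1, MGA, MYBL1, MXD1 and MYCN. For 6 of the 7 neighbouring pairs, both samples of the one lay above both samples of the next. The exception was MXI1 and MGA, whose ratio was 1.07 in replicate 1 and 0.978 in replicate 2, so their order changed between the samples.

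**Figure D1:**
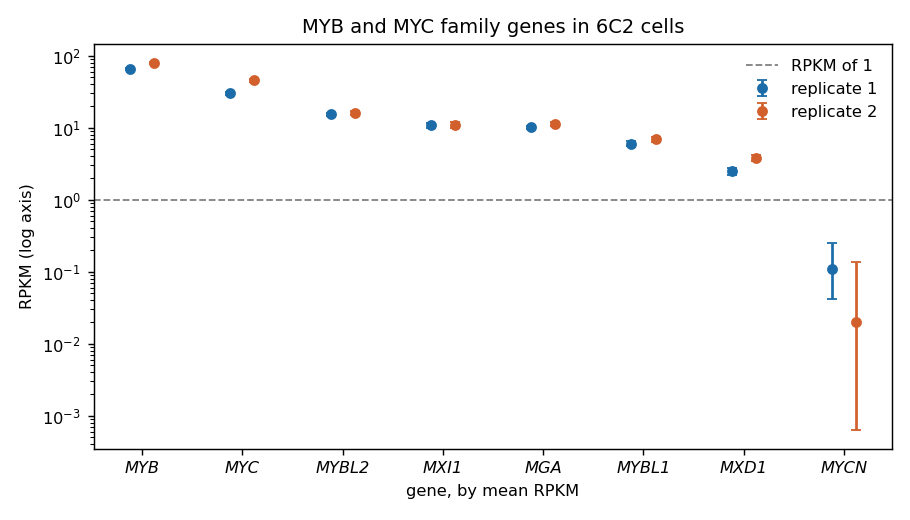
RPKM of the 8 genes on a log axis, by sample, ordered by mean. Points are samples, bars are exact 95% Poisson intervals of the read count (counting error only), and the dashed line marks an RPKM of 1; 7 genes lie above it in both samples, from MYB at 64.73 and 78.54 down to MXD1 at 2.49 and 3.78, and MYCN lies under it.

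Among the MYB genes, MYB (ENSGALG00000013956) stood at 64.73 RPKM in replicate 1 and 78.54 in replicate 2, or 71.6 ± 9.77 (SD, n = 2). These values rest on 5617 and 5218 reads, whose exact 95% Poisson intervals, covering counting error only, ran from 63.1 to 66.5 and from 76.4 to 80.7. Replicate 2 was the higher sample and the intervals did not overlap. By mean, 992 of the 13086 named genes were higher, which puts MYB at the 92.4th percentile, and outside small RNAs, mitochondrial genes and models under 200 bp it lay at the 93.9th. The model lies on chromosome 3 from 57630009 to 57651655 on the minus strand, in the coordinates of the table, which names no genome build. Its listed length of 2185 bp is 10.1% of this span.

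MYBL2 (ENSGALG00000003503, chromosome 20, 3597679 to 3613736, minus strand) was the next of the MYB genes, with 15.33 RPKM in replicate 1 and 16.04 in replicate 2 from 1566 and 1254 reads. The mean was 15.7 ± 0.502 (SD, n = 2), at the 72.1st percentile of named genes, and the samples lay close together. MYB stood 4.22-fold and 4.90-fold above it. MYBL1 (ENSGALG00000015522, chromosome 2, 119492433 to 119512118, minus strand) stood at 6.00 and 6.92 RPKM from 665 and 587 reads, or 6.46 ± 0.651. It was the lowest of the MYB genes in both samples, at the 55.6th percentile, and MYB exceeded it 10.8-fold and 11.3-fold. The span of MYBL1 lies inside that of a COPS5 model on the same strand, from 119186304 to 119682639, which itself stood at 12.44 and 16.64 RPKM. The sources used here do not give how reads in overlapping models were counted, and the split between these 2 genes is uncertain. Of the summed RPKM of the MYB genes, MYB made up 76.3% ± 1.53, MYBL2 16.8% ± 1.42 and MYBL1 6.89% ± 0.109.

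Among the MYC genes, MYC (ENSGALG00000016308, chromosome 2, 145392353 to 145394591, plus strand) stood at 30.04 RPKM in replicate 1 and 45.42 in replicate 2, or 37.7 ± 10.9 (SD, n = 2). The reads were 1490 and 1725, with 95% Poisson intervals of 28.5 to 31.6 and 43.3 to 47.6 RPKM. The samples were thus apart by more than counting error, with replicate 2 higher. By mean MYC lay at the 86.2nd percentile of named genes. MYCN (ENSGALG00000016462, chromosome 3, 102114357 to 102117498, plus strand), which in vertebrate embryos serves above all the nervous system, had 6 reads in replicate 1 and 1 in replicate 2, or 0.11 and 0.02 RPKM. Their intervals, 0.0417 to 0.247 and 0.000626 to 0.138, overlapped. The third gene of this family, listed under the older symbol MYCL1, stood at 2.14 and 2.79 RPKM on a model of 554 bp, from 47 reads in each sample. Of the summed RPKM of MYC, MYCN and MYCL1, MYC made up 93.6% ± 0.807.

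Among the genes that oppose MYC, MXI1 and MGA had the higher levels and MXD1 the lowest of the members detected. MXI1 (ENSGALG00000008555, chromosome 6, 27285204 to 27327735, plus strand), which recruits the SIN3 corepressor, stood at 10.77 and 11.05 RPKM from 541 and 425 reads. Its mean was 10.9 ± 0.198, the smallest spread between samples of the detected members. MGA (ENSGALG00000008653, chromosome 5, 27168506 to 27186524, plus strand), a MAX partner that also carries a T-box domain, stood at 10.07 and 11.30 RPKM from 1035 and 889 reads, or 10.7 ± 0.870. MXD1 (ENSGALG00000013882, chromosome 22, 2860586 to 2866186, plus strand), known in mammals to be turned on as blood cells mature, stood at 2.49 and 3.78 RPKM from 361 and 420 reads, or 3.14 ± 0.912. It lay at the 46.6th percentile of named genes, below the middle, while MXI1 and MGA lay at the 65.0th and 64.7th.

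MYC stood 2.79-fold above MXI1 in replicate 1 and 4.11-fold in replicate 2, and 2.98-fold and 4.02-fold above MGA. Against MXD1 the ratio was 12.06 in replicate 1 and 12.02 in replicate 2, since both genes were higher in replicate 2 by about the same factor. Of the repressing partners of MAX outside the 8 genes, MXD4 stood at 14.71 and 14.28 RPKM and MNT at 1.23 and 1.49. MXD3, a further repressor of this group, had no row under that symbol and is missing from the sums and shares that follow. The 5 repressors MXD1, MXI1, MXD4, MNT and MGA summed to 39.27 RPKM in replicate 1 and 41.90 in replicate 2, and MYC, MYCN and MYCL1 summed to 32.29 and 48.23. The ratio of the MYC sum to the repressor sum was 0.822 in replicate 1 and 1.15 in replicate 2, so which side was higher changed between the samples. MXD4 gave 35.8% ± 2.39 of the repressor sum, MXI1 26.9% ± 0.745, MGA 26.3% ± 0.938, MXD1 7.68% ± 1.90 and MNT 3.34% ± 0.300.

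**Figure D2:**
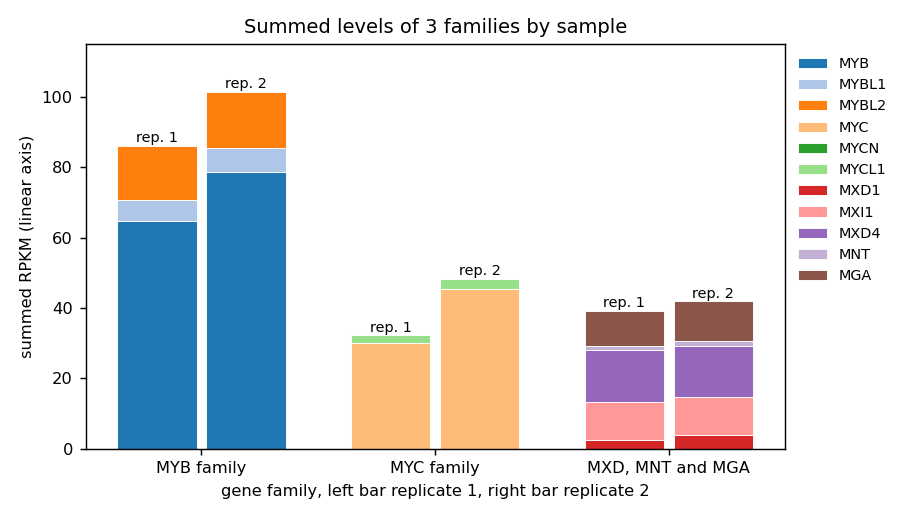
Summed RPKM of the MYB genes, the MYC genes and the repressing MAX partners on a linear axis from 0, each with replicate 1 on the left and replicate 2 on the right, stacked by gene. MYB fills most of its family's bars and MYC nearly all of its own, at 30.04 and 45.42 RPKM, while the repressor bars reach 39.27 and 41.90 and are shared mainly by MXD4, MXI1 and MGA.

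The difference between the samples was largest, among members detected, for MXD1 and MYC. On the deposited scaling, the log2 ratio of replicate 1 over replicate 2 was -0.60 for MYC, with an exact 95% counting interval of -0.70 to -0.50, and -0.60 for MXD1, with -0.81 to -0.40. MYC was thus 1.51-fold and MXD1 1.52-fold higher in replicate 2. Of the 8656 genes detected, 6.35% exceeded 1.5-fold towards replicate 2 and 1.96% did so towards replicate 1. Among 2337 other genes with a mean RPKM within 2-fold of that of MYC, 15 (0.642%) leaned as far towards replicate 2, and the SD of their log2 ratio was 0.21. For MXD1 this held for 351 of 2127 genes of like level (16.5%). These shares depend on the genes compared: among all genes with 100 or more reads in both samples they were 4.6% for MYC and 4.35% for MXD1. MYB, at -0.28, leaned towards replicate 2 as far as 5.03% of 1393 genes of like level.

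All 7 members detected were higher in replicate 2, a direction that 61.7% of detected genes shared. MYBL1 had a log2 ratio of -0.21, MGA -0.17, MYBL2 -0.06 and MXI1 -0.04, and the counting intervals of MYBL2 and MXI1 spanned 0. The median over the detected members was -0.21, against -0.07 over detected genes of all levels. Among genes of like level, 43.9% leaned as far towards replicate 2 as MYBL1 and 40.1% as far as MGA. For MYBL2 this share was 52.4% and for MXI1 62.0%. When the samples were scaled by median-of-ratios size factors, the median over detected genes moved to 0.04. MYB then stood at -0.17, outside its counting interval of -0.33 to -0.22 on the deposited scaling. MYBL1 stood at -0.10 and MGA at -0.06, also still higher in replicate 2. MYBL2 stood at 0.04 and MXI1 at 0.07, higher in replicate 1. MYC at -0.49 and MXD1 at -0.49 kept their direction but were no longer 1.5-fold apart. MYCN had a ratio of 2.20 the other way, with an interval of -0.84 to 7.72, so its 7 reads do not settle a direction. Each side being 1 sample, none of these differences could be tested.

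**Figure D3:**
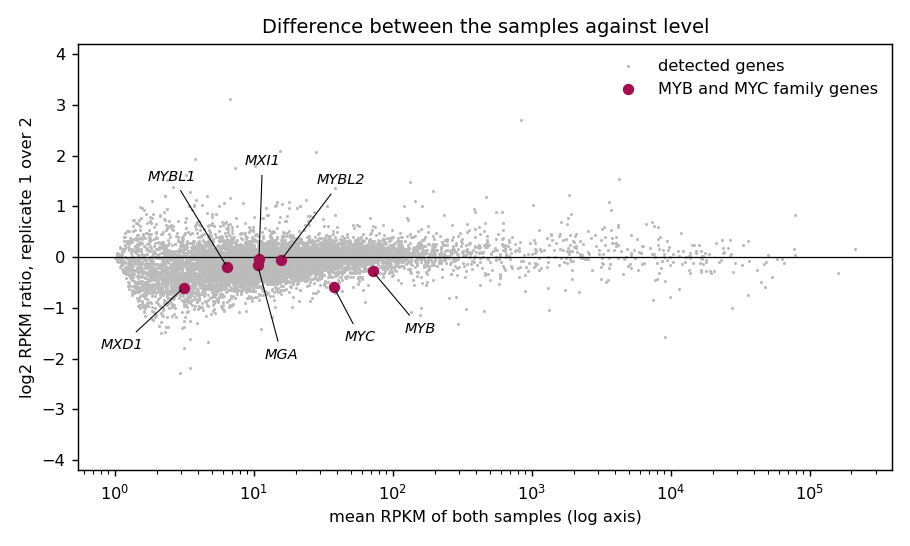
Log2 ratio of RPKM in replicate 1 over replicate 2 against mean RPKM on a log axis for the 8656 genes detected (grey) and the 7 detected family genes (coloured and named). MYC and MXD1 lie lowest of the 7, both at -0.60, and MYC sits at the lower edge of genes of its level, while MYBL2 and MXI1 lie near 0.

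Of the other genes of the MYC and MAX network, 6 of 7 measured were detected, against 60.4% of named genes. Their median was 3.62 RPKM, under the 4.34 of named genes. MLX, which pairs with MLXIP and MLXIPL as MAX does with MYC, was the highest at 92.11 and 91.14 RPKM, above MYC in both samples. Its partner genes stood at 17.50 and 18.54 for MLXIP and at 0.08 and 0.16 for MLXIPL, the glucose-responsive factor of liver. ZBTB17, which encodes MIZ1, a partner of MYC at genes it represses, stood at 2.77 and 4.46. Other factors with a basic helix-loop-helix domain were detected for 7 of 8 measured, led by the sterol regulator SREBF2 at 48.24 and 66.99, ARNT at 19.68 and 26.25 and the mast cell and pigment cell factor MITF at 20.92 and 24.31. ARNTL, a clock gene, followed at 18.44 and 18.12, and TFEC was at 0.09 in both samples. None of these 8 reached MYB, and SREBF2 alone stood above MYC, in both samples.

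Cofactors of MYC were detected for 11 of 12 measured, against 60.4% of named genes. Their median was 8.12 RPKM, against 4.34 over named genes. The deacetylase genes HDAC2 and HDAC1, whose products serve the SIN3 corepressor, led with 81.96 and 78.11 and with 53.46 and 56.70. RUVBL1, a helicase-like ATPase that binds MYC, stood at 54.24 and 43.70 and WDR5, which helps MYC hold to chromatin, at 40.77 and 40.02. SIN3A, the scaffold that MXD proteins recruit, was at 3.67 and 5.59, and NCOR1, at 0.39 and 1.06, was the gene that missed the threshold. Regulators of MYC stability were detected for 10 of 10, against the same 60.4%, with a median of 23.7. The kinase gene AURKA was the highest at 106.89 and 110.55, the phosphatase genes PPP2CA and PPP2R5A stood at 52.63 and 49.79 and at 49.75 and 47.95, and the ubiquitin ligase gene SKP2 at 31.64 and 30.38. FBXW7, the ligase that marks both MYC and MYB for destruction, was the lowest at 3.14 and 3.33.

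Textbook targets of MYC were detected for 16 of 17 measured, against 60.4% of named genes. Their median was 65.7 RPKM, against 4.34 over named genes. The lactate dehydrogenase gene LDHA led with 2233 and 1924, ahead of the nucleolar gene NPM1 at 414.45 and 287.87, the peroxiredoxin gene PRDX3 at 320.55 and 317.63 and the transferrin receptor gene TFRC at 263.61 and 297.60. TFRC also serves red cell iron uptake and stands among the erythroid markers. NCL, for nucleolin, stood at 206.30 and 243.09 and ODC1, for the first enzyme of polyamine synthesis, at 51.62 and 53.40. TERT, for the catalytic subunit of telomerase, was named after its value was seen; it stood at 62.39 and 69.05 from 14763 and 12511 reads. NME1 was listed at 0.32 and 0.45. Of the 16 detected, 9 were higher in replicate 2, where MYC was higher, a direction that 61.7% of detected genes shared. On the deposited scaling, 2 of the 9, CAD and CDC25A, were at least 1.5-fold higher there, as were 6.35% of detected genes. The median log2 ratio of the 16 was -0.08, close to the -0.07 of all detected genes. Each of these genes has many other regulators, so their levels are no measure of MYC activity.

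Of genes bound or driven by MYB in other blood cells, 8 of 16 measured were detected, and the other 8 were under 1 in both samples. This is 50%, against 60.4% of named genes and 52.6% of all genes analysed. The median of the 16 was 3.83 RPKM, against 4.34 over named genes. The chaperone gene HSPA8 stood at 1270 and 1354, LMO2 at 54.37 and 50.91, GATA2 at 40.19 and 52.57 and the survival gene BCL2 at 11.02 and 13.48; MYC itself stands in this list. ADORA2B, an adenosine receptor gene known as a target of the viral MYB protein in chicken cells, stood at 8.73 and 11.85. LECT2, the chicken gene known as mim-1 and the classic MYB target of immature granulocytes, had 1 read in replicate 1 and 0 in replicate 2, where 0 reads allow up to 0.0943 RPKM. The lysozyme gene LYZ had 2 reads in each sample. The progenitor genes KIT, at 0.30 and 0.41, CD34, at 0.08 in both, and FLT3, at 0.37 and 0.26, were also under 1, as were CD4, GATA3 and CXCR4.

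Partners and regulators of MYB were detected for 11 of 12 measured, against 60.4% of named genes. Their median was 6.02 RPKM, against 4.34 over named genes. The kinase gene NLK stood at 18.19 and 18.43 RPKM, PIAS1 at 13.01 and 13.87 and CEBPB, which acts with MYB in myeloid cells, at 6.15 and 8.47. The coactivator genes EP300 and CREBBP, whose products bind the MYB transactivation domain, stood at 4.71 and 6.87 and at 2.37 and 4.39, and MLL, for a histone methyltransferase that binds MYB, at 4.95 and 7.92. MYB thus stood above each of these coactivator genes in both samples. SPI1, for the myeloid regulator PU.1, was at 0.20 and 0.10. On the deposited scaling, CREBBP and MLL were both at least 1.5-fold higher in replicate 2, as were 6.35% of detected genes. Other scalings were not run for these 2 genes.

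Genes listed with the MuvB complex, with which MYBL2 works, and with the DREAM complex were all detected where measured, against 60.4% of named genes. LIN37, RBL2 and CDK2 had no row under these symbols, and RNA levels do not show whether a complex forms. Of the MuvB and DREAM list, 10 of 10 reached an RPKM of 1, with a median of 16.5, close to the 15.7 of MYBL2 itself. Over named genes the median was 4.34. The E2F partner gene TFDP1 led with 137.80 and 131.73, followed by the histone chaperone gene RBBP4 at 94.35 and 89.40, the cyclin gene CCNA2 at 68.93 and 72.20 and the RB-like gene RBL1 at 16.11 and 21.81. LIN9, the core subunit, stood at 9.16 and 10.44, so that MYBL2 was 1.67-fold and 1.54-fold above it. FOXM1, which joins MuvB after MYBL2, stood at 14.74 and 15.87, near MYBL2. Listed targets of MYBL2 and FOXM1, mainly mitotic genes but also CLU, were detected for 12 of 12, against 60.4% of named genes. Their median was 29.6. CCNB2 stood at 229.62 and 236.81, CDC2 at 196.56 and 205.74 and CDC20 at 48.54 and 55.99. AURKA is also in this list.

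Other genes whose proteins carry a MYB or SANT domain were detected for 12 of 12 measured, with a median of 11.6 RPKM. The splicing factor gene CDC5L was the highest at 52.80 and 52.16, followed by ZZZ3 at 30.54 and 32.07, RCOR1 at 18.13 and 19.17 and MTA1 at 17.39 and 19.88. MYB lay above all 12 in both samples, and MYBL2 above 7 of them and below 5 by mean. Shares detected in these lists are to be read against the 60.4% of all named genes; the lists were chosen as regulators and growth genes, and no test sets them apart.

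**Figure D4:**
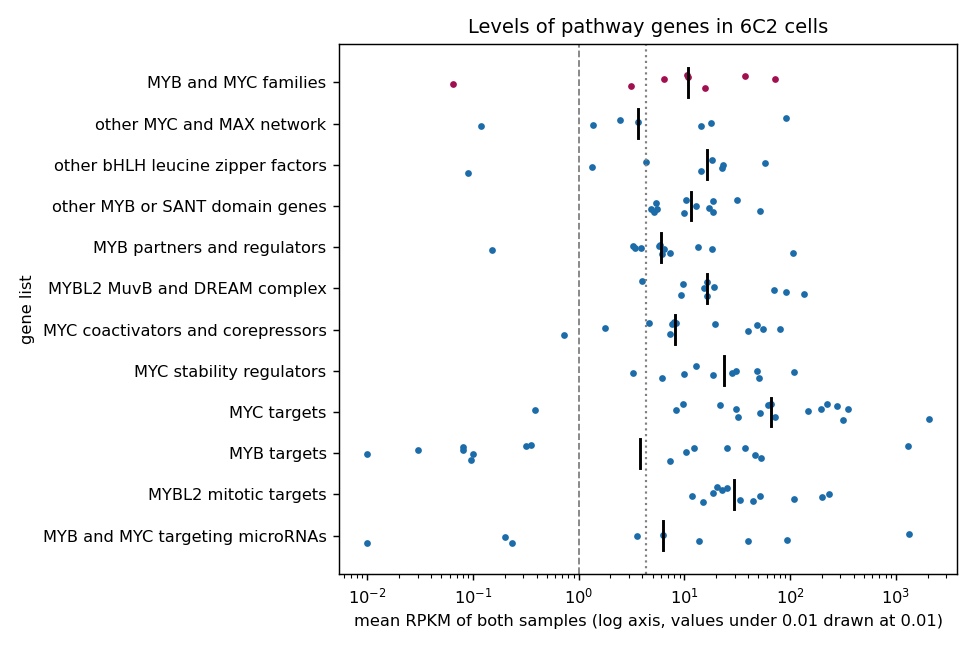
Mean RPKM of both samples on a log axis for each measured gene (points) of the family and of 11 lists of pathway genes, with the median of each list as a black bar. The dashed line marks an RPKM of 1 and the dotted line the median of named genes, 4.34. MYC targets have a median of 65.7 and MYB targets a median of 3.83. Of the MYB targets, 50% were detected, against 60.4% of named genes.

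MYB and MGA, 2 of the 8 genes, stood above all the gene models around them. Of the 32 models nearest to the 8 genes, 2 on each side, 18 were detected, against 52.6% of all genes analysed. MYB lies between AHI1, 41.9 kb away at 3.78 and 4.71 RPKM, and HBS1L, 46.4 kb away at 28.50 and 26.79, and stood above all 4 of its neighbours in both samples. MGA also stood above its 4 neighbours in both samples, with MAPKBP1 next at 4.51 and 5.40. In mammals, the stretch between HBS1L and MYB is known to hold distant control elements of MYB.

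MYC lies in a sparse region, with FAM84B 454 kb away on the lower side at 0 and 1 read. On the higher side, 63.0 kb away on the other strand, a model of 81 bp without a symbol, ENSGALG00000018085, stood at 133.06 and 127.09 RPKM from 428 and 313 reads. Its log2 ratio between samples was 0.07 and that of FAM49B, 732 kb away, was -0.00, whereas that of MYC was -0.60. NSMCE2, 903 kb away on the lower side, stood at 38.61 and 25.16 RPKM from 483 and 241 reads, with a log2 ratio of 0.62, as far from 0 as that of MYC but higher in replicate 1. Beside MYBL1, 3.68 kb away on the same strand, a model of 89 bp without a symbol, ENSGALG00000018072, stood at 209.38 and 362.89 RPKM from 740 and 982 reads. Models this short rest on few positions, and their RPKM is not ranked against that of long genes.

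MXD1 lies 1.01 kb from C2ORF42, at 2.15 and 3.35 RPKM, and 3.77 kb from SNRNP27, at 33.67 and 38.02. All 4 models around MXD1 were higher in replicate 2, a direction that 61.7% of detected genes shared. Their log2 ratios ran from -0.64 at C2ORF42 to -0.18 at SNRNP27. Among 2127 genes with a mean RPKM within 2-fold of that of MXD1, the median log2 ratio was -0.25 and the SD 0.43. C2ORF42 was at that level and SNRNP27 above it. MXI1 lies between ADD3, at 50.82 and 47.06, and SMNDC1, at 81.58 and 76.33, both of which stood above it. MYBL2 lies 0.347 kb from a model without a symbol that had 3 and 2 reads, and 4.22 kb from IFT52, at 55.33 and 52.09. MYCN, near 0, had DDX1 255 kb away at 59.03 and 52.30 on one side and FAM49A 359.9 kb away at 0.08 and 0.03 on the other.

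**Figure D5:**
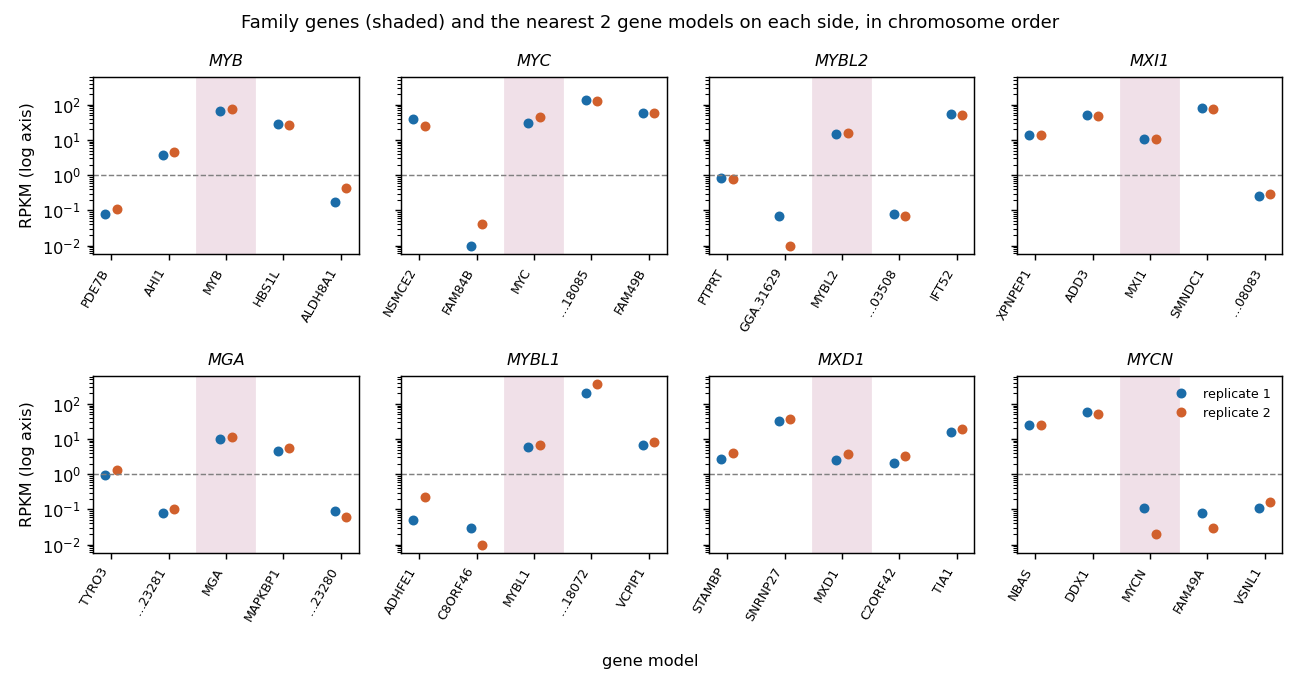
RPKM on a log axis of each family gene (shaded) and of the nearest 2 models on each side, in chromosome order and by sample; values of 0 are drawn at 0.01, the dashed line marks an RPKM of 1, and models without a symbol carry the end of their identifier. MYB and MGA lie above their 4 neighbours, whereas MXI1 lies between higher genes. MYCN has 2 genes near 0 on its higher side, and on its lower side DDX1 (59.03 and 52.30) and NBAS (24.44 and 25.67).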

How the data were processed

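Total RNA of 6C2 cells was sequenced in 2 samples of 1 group. Per the labels' protocols, ribosomal RNA was depleted, and libraries were made with the SOLiD Total RNA-Seq kit after RNase III fragmentation. Per the file headers, the table that the authors deposited gives each gene's read counts and RPKM values in both samples. The sources used here do not name the aligner, the counting tool, the build or how reads shared between genes were handled. All deposited RPKM values could be recomputed from the counts, the listed length and 1 library total per sample, within 0.006 plus rounding. These totals, 3.97e+07 in replicate 1 and 3.04e+07 in replicate 2, were lower than the summed counts of 40064443 and 30668939. Whether reads were counted in more than 1 model was not tested. Counts of the 2 samples differed by more than sampling noise (chi-square 48.6 for each of 11891 degrees of freedom), so they were kept as separate samples.

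The 1470 rows with an empty symbol field, which held 0 reads, were left out; rows that give an identifier in place of a symbol were kept and are called models without a symbol. Levels are deposited RPKM; counts gave exact Poisson intervals, exact binomial intervals of ratios between samples, and limits at 0 reads (the RPKM of 3 reads), all for counting error only. Where a symbol repeated, the longest model was used. List genes were matched by symbol, older symbol or unambiguous synonym in the RefSeq gene table of GRCg7b: 168 of 207 entries had a row. Members and lists were chosen with earlier results of these data known. Named genes are the members, the 4 highest of each list and up to 2 under 1, flanking models and a fixed set, of which some are not reported here; others (BCL2, ADORA2B, FLT3, GATA3, CXCR4, EP300, CREBBP, MLL, SIN3A, NCOR1, FOXM1, TERT, CAD and CDC25A) were named after their values were seen. The plan to compare protein and promoter sequences was not carried out, as no sequence was used here. Steps were tested on simulated counts with Poisson noise only. The samples differed by more than that, so this check does not cover the excess. Alternatives covered thresholds, scaling, pseudocounts, gene models and leaving out each sample. Software was Python 3.11.15, scipy 1.17.1, numpy 2.4.6, matplotlib 3.10.9 and pandas 2.3.3.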

Additional observations from a re-analysis of the deposited data

How the results depend on the processing

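Detected members numbered 6 with a threshold of RPKM 5 and 7 under every other alternative run. Counts of detected list genes that are not given here stayed within 1.5-fold of the main ones. With a threshold of RPKM 5, detected genes numbered 3 for the other MYC and MAX network, 6 for MYB partners, 0 for T cell and 0 for macrophage markers; with 0.5 they were 2 for T cell and 2 for fibroblast markers. By at least 10 reads they were 3 for T cell, 1 for B cell and 2 for fibroblast markers. MYB targets numbered 10 by this rule, against 8 at an RPKM of 1. On a library total without small RNAs and mitochondrial genes, 2 fibroblast markers passed, and with 1 sample left out 0 to 1 did, COL1A2 being at 0.88 and 1.57. Ordered by reads instead of RPKM, 5 of 8 members kept their place, because lengths differ. Members at least 1.5-fold apart between samples numbered 3 (MYC, MXD1 and MYCN), but 1 with median-of-ratios scaling and 0 on log2(RPKM + 1). The share of genes leaning as far towards replicate 2 as MYC was 4.6% among all genes that had 100 or more reads in replicate 1 and in replicate 2, against 0.642% at like level; for MXD1 it was 4.35% against 16.5%. Against named nuclear genes of at least 200 bp outside small RNAs, a background chosen after seeing the data, 61.2% were detected. The motif comparison was not run. No paired analysis was possible because the series holds 1 group. The depth leaves MYCN, with 7 reads in all, without a usable ratio.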

Other observations

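Precursors of microRNAs that are known in mammals to act on MYB or MYC transcripts were measured for 9 of 11 names, and 6 were detected, against 46.6% of 740 small RNAs. The names gga-mir-150 and gga-mir-145 had no row and were not measured. Of those measured, the precursor gga-mir-155 stood far above the rest at 1434 and 1221 RPKM from 3531 and 2302 reads. The precursors of the miR-15 and miR-16 family were lower, with gga-mir-16c at 90.29 and 95.85, gga-mir-15b at 42.53 and 38.01 and gga-mir-16-1 at 10.62 and 16.64. Those of the miR-34 family, which lower MYC in mammals, were near 0: gga-mir-34a had 2 reads and 0 reads, gga-mir-34b 0 and 1, and gga-mir-34c 0 and 0, where up to 1.03 and 1.35 RPKM is still possible. These are models of 62 to 108 bp counted in libraries of fragmented total RNA, so the values do not give the level of mature microRNAs.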
